A study of Mus musculus with 27 samples.

Results

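Macrophages that remained in mouse mammary tumours under an antibody against CSF-1R were compared with macrophages from tumours given a control antibody. The comparison takes every macrophage library with either label and without cisplatin, 2 anti-CSF-1R and 4 control libraries, 6 of the 27 libraries of the study, and describes all genes. All mice carried K14cre;Cdh1F/F;Trp53F/F: the Cre recombinase acts in cells that express keratin 14, a basal epithelial keratin, and deletes E-cadherin and p53 there, so the tumours arise in the mammary gland itself and the leukocytes are not the cells this Cre is built to act in. Control mice received control antibody alone and treated mice anti-CSF-1R alone, and both were killed when the tumour reached 100 mm2. Macrophages were sorted by FACS, and neither the gate nor the ages of the mice appear in the labels. The other libraries came from macrophages of mice given cisplatin together with either antibody (4 with control, 2 with anti-CSF-1R), killed 1 day after the second cisplatin injection, and from neutrophils of the same 4 treatments (15). Nothing in the labels says that libraries of a group came from separate mice, so p-values measure the spread between libraries, which may be partly technical.

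CSF-1R is a receptor tyrosine kinase on monocytes and macrophages. Its ligands CSF-1 and IL-34 keep many tissue macrophages alive and drive them to divide, and antibodies that block it deplete tumour macrophages, so the cells sorted here are those still present under blockade. Tumour macrophages are replaced from blood monocytes, which carry Ly6C and CCR2 and lose them while they gain genes of resident macrophages.

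The deposited values are normalised read counts, used here after lost decimal points were put back, and the lowest value in the table is 1. A value was left out where its point could not be placed with a probability of at least 0.95, which took 479 and 641 of 9996 genes in the anti-CSF-1R libraries and 347 to 494 in the controls. The decoded reads came to 1751718 and 1905541 in anti-CSF-1R replicates 1 and 2 and to 1606240 to 2675240 in the controls. The lowest value stood at 426 and 577 genes in the anti-CSF-1R libraries and at 298 to 477 in the controls. Sums over marker lists take each left-out value at its most probable place, and the highest possible sum is given where it changes the order. Each of the 12 macrophage markers stood above 1 wherever it was decoded, in all 6 libraries but for Fcgr1 in anti-CSF-1R replicate 1 (457 or 45.7), and the sums were 42358 and 47759 with anti-CSF-1R and 28538 to 32968 in controls. One library stood apart: anti-CSF-1R replicate 2 summed to 9302 over 9 mast cell and basophil markers, all decoded. Replicate 1 came to 14.3 with 4 markers left out, or at most 937, and the controls to 13.4 to 79.8, or at most 648. Results are therefore also given without it.

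Between the groups, 222 of 9064 genes tested differed (2.45%; limma on log2(value + 1), Benjamini-Hochberg adjusted p under 0.05, as for every adjusted p here). Of these, 103 were higher with anti-CSF-1R (1.14%) and 119 lower (1.31%), and 1838 genes had an unadjusted p under 0.05. The median log2 difference over all genes tested was 0.03. The lower genes included Cx3cr1, Rtn1 and genes of DNA replication and mitosis, and the higher ones Thbs1, Fabp5, Ctsd, Ctsl and Btg1. Left-out values can lie at any of their possible places, so a gap between the groups is one between decoded values. A value was decoded in all 6 libraries for 143 of them, 75 higher and 68 lower, with median log2 differences of 1.38 and -1.53. When points were placed without knowledge of the groups, 135 of 9086 genes passed (1.49%), 59 higher (0.649%) and 76 lower (0.836%), and 131 genes passed in both decodings. Without anti-CSF-1R replicate 2 the count fell to 16 of 8701 (0.184%), 5 higher (0.0575%) and 11 lower (0.126%). It rose to 454 without replicate 1 of the same group. Leaving out control replicate 1, 2 or 4 gave 85, 76 and 478 genes. Only 11 of the 222 passed in all 6 fits that each left out 1 library: Thbs1, Fabp5, Ear2 and Rsad2 higher, and Rtn1, Topbp1, Lnx2, Fam210b, Pcdhgc3, Hist1h2bm and 2810417H13Rik lower. Among those higher genes, Ear2 and Rsad2 had left-out control values whose highest readings would lie above treated ones. In bulk RNA, fewer cells of a kind and less RNA per cell cannot be told apart, so a lower value can stand for either.

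**Figure D1:**
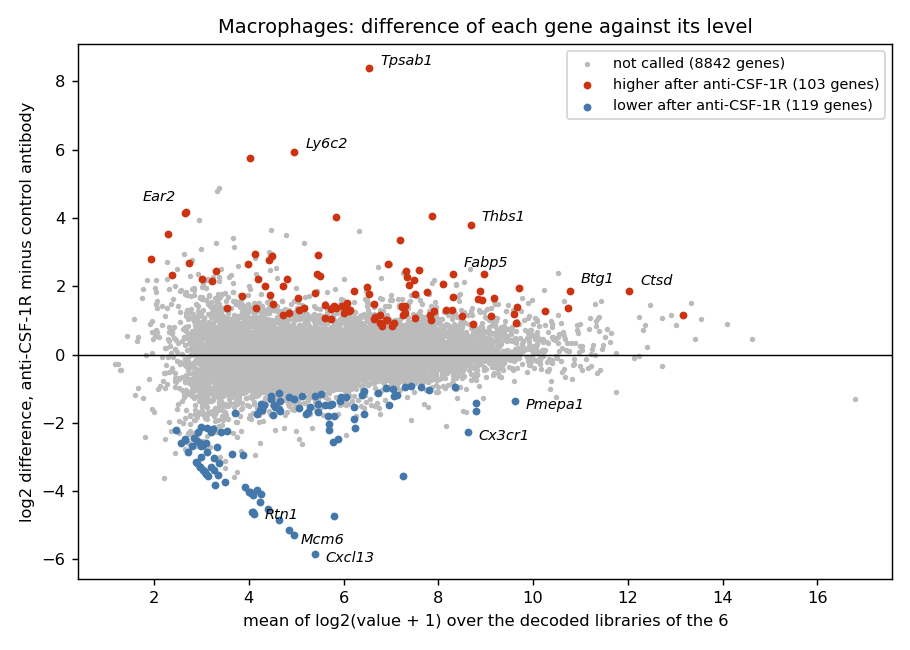
Each point is 1 of the 9064 genes tested. The horizontal axis is the mean of log2(value + 1) over the decoded libraries of the 6 and the vertical axis the fitted log2 difference, anti-CSF-1R minus control antibody. The 103 genes higher with anti-CSF-1R are red and the 119 lower are blue. Many of the lower genes sit at low levels, along a diagonal edge formed by the lowest listed value of 1.

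The target receptor itself was still transcribed in the remaining cells. Csf1r stood at 2324, 2243, 2438 and 1777 in the controls and at 1414 and 2143 with anti-CSF-1R. The groups overlapped, and the log2 difference was -0.32 ± 0.23 (SE, adjusted p = 0.463). Adgre1, which encodes the F4/80 antigen used to recognise mouse macrophages, stood at 574, 501, 474 and 608 in the controls and at 599 and 568 with anti-CSF-1R, also with overlap (log2 difference 0.12 ± 0.20 SE, adjusted p = 0.781). Cd68, an endosomal glycoprotein of macrophages, stood at 911 to 1193 in the controls and at 1714 and 1747 with anti-CSF-1R, without overlap but not past the threshold (adjusted p = 0.188). These genes were thus transcribed in all 6 libraries. Over the 12 macrophage markers, however, the control macrophage libraries summed to 101% to 117% of the mean in control neutrophils. That sum therefore does not tell the sorted populations apart. Adgre1 had a mean of 109 in control neutrophils, below each of the macrophage values given here.

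Genes of tissue macrophage identity divided. Cx3cr1, the fractalkine receptor of resident macrophages and patrolling monocytes (chr9:119901616-120069879, minus strand, GRCm38), stood at 899, 781, 370.5 and 758 in the controls and at 166 and 112 with anti-CSF-1R. Every anti-CSF-1R value lay below every control, and the log2 difference was -2.28 ± 0.38 (SE, adjusted p = 0.0087). Rtn1, a reticulon of the endoplasmic reticulum (chr12:72211752-72409054, minus strand), stood at 69.1, 90.9, 33.7 and 28.5 in the controls and was listed at 1 in both anti-CSF-1R libraries (adjusted p = 0.00141). Gas6, the bridging ligand of the receptors Axl and MerTK in the uptake of dying cells, was decoded in control replicates 1 and 2, at 155 and 161, and stood at 58.4 and 36.7 with anti-CSF-1R (log2 difference -1.74 ± 0.30 SE, adjusted p = 0.0157). The lowest readings of its left-out controls, 8.26 and 6.70, would lie below both treated values. Trem2, a lipid-sensing receptor of macrophages (chr17:48346401-48354147, plus strand), went the other way, from 164, 89.2, 87.5 and 163 to 424 and 398 (log2 difference 1.76 ± 0.29 SE, adjusted p = 0.0087), but its adjusted p was 0.0692 when points were placed without the groups. These 4 were the called members of 36 tested, 1 higher and 3 lower, with a list median of -0.22. The counts ranged from 1 without anti-CSF-1R replicate 2, where Rtn1 was the member that passed and Cx3cr1 had an adjusted p of 0.156, to 7 without control replicate 4. Complement chains and the mannose receptor of the same cells overlapped between the groups: C1qa, C1qb and C1qc had adjusted p = 0.868, 0.841 and 0.352, and Mrc1, the receptor CD206, stood at 1111 to 3423 in the controls and at 1570.4 and 1093 with anti-CSF-1R.

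**Figure D2:**
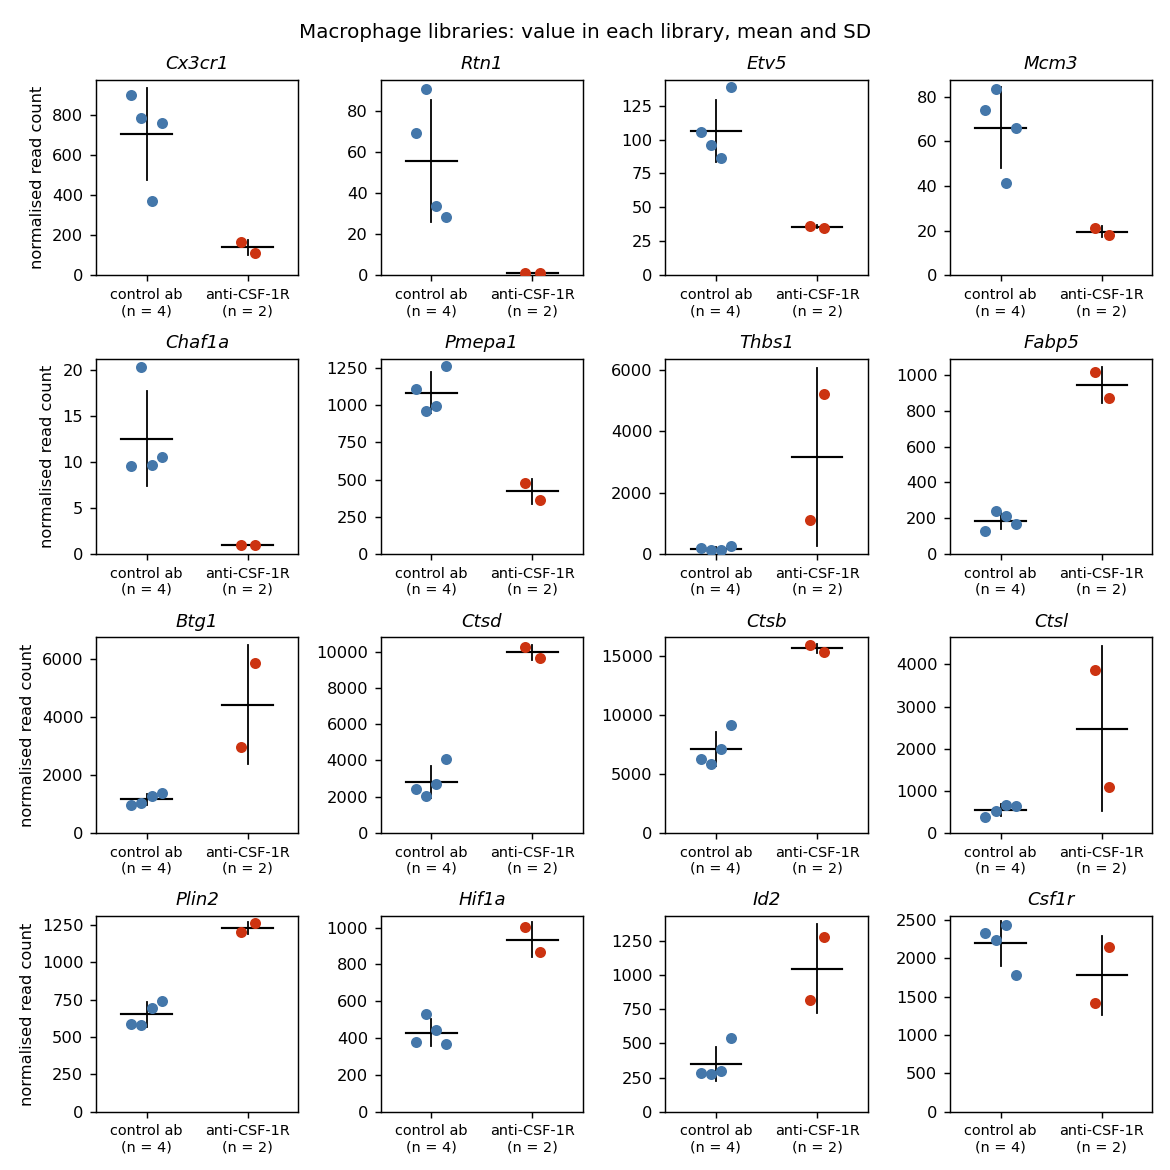
Normalised read count in each library for 16 genes, with control libraries in blue (n = 4) and anti-CSF-1R libraries in red (n = 2). Horizontal lines are means and vertical lines 1 SD, each panel starts at 0, and the groups are separate in every panel except that of Csf1r.

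Of 22 classical monocyte genes tested, 5 passed higher and 0 lower, with a list median of 0.77. Thbs1, the matricellular protein thrombospondin 1 (chr2:118111876-118127133, plus strand), stood at 187, 126, 143 and 248 in the controls and at 1098 and 5210.4 with anti-CSF-1R. Both treated values lay above the controls although they differ widely from each other, and the log2 difference was 3.81 ± 0.48 (SE, adjusted p = 0.00174, and 0.0318 without anti-CSF-1R replicate 2). Ly6c2, the Ly6C antigen of classical monocytes (chr15:75108158-75111970, minus strand), stood at 126 and 117 with anti-CSF-1R and was listed at 1 in the only control decoded, replicate 2 (adjusted p = 0.00783). The left-out controls could be 504, 50.4 or 5.04 in replicate 1, 207, 20.7 or 2.07 in replicate 3 and 223, 22.3 or 2.23 in replicate 4, so a gap between the groups rests on the lower readings. Mgst1, a microsomal glutathione transferase, stood at 13.3, 28.9 and 26.2 in the 3 decoded controls and at 148 and 88.9 with anti-CSF-1R (log2 difference 2.35 ± 0.45 SE, adjusted p = 0.0193), and the left-out control could be 568, 56.8 or 5.68. Clec4d, a C-type lectin that signals through Fc receptor adaptors, stood at 113, 174, 369.8 and 110.5 against 459.9 and 1072 (log2 difference 2.05 ± 0.47 SE, adjusted p = 0.0416, and 0.0562 when points were placed without the groups). The fifth, the chitinase-like gene Chil3, had 1 decoded control, at 34.6, and stood at 765 and 461 with anti-CSF-1R (adjusted p = 0.0343). Its left-out controls could be 110 or 11 in replicate 1, 162, 16.2 or 1.62 in replicate 2 and 454 or 45.4 in replicate 3, and the highest of these nearly reaches the treated values. The other monocyte genes tested did not pass. Ccr2, the chemokine receptor that brings monocytes out of the marrow, stood at 842, 394, 232 and 268 in the controls and at 261 and 265 with anti-CSF-1R, within their range (adjusted p = 0.534). Without anti-CSF-1R replicate 2, Thbs1 was the monocyte gene that passed, and without control replicate 3 there were 6. Over 10 neutrophil markers the sums were 1039.6 and 1136 with anti-CSF-1R and 176, 229, 1253 and 310 in the controls. Controls 1, 2 and 4 had 5, 5 and 3 of these markers left out and could reach 2084, 1922 and 1495, so that an order between the groups is not shown. Of 13 neutrophil genes tested none passed, 10 were higher and the median was 0.71. The granule genes Ltf and Camp were listed at 1 in both anti-CSF-1R libraries and in control replicates 1, 2 and 4. Csf3r stood at 129, 93.3, 302 and 148 in the controls and at 324 and 351 with anti-CSF-1R (adjusted p = 0.1466). Mmp8 stood at 1, 15.1 and 1 in the decoded controls and at 52.5 and 26.9 with anti-CSF-1R. Its left-out control, replicate 2, could be 162, 16.2 or 1.62. The part of neutrophil RNA in the monocyte result was not tested.

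Genes that copy DNA and divide the cell were among those that fell. Of 26 genes of replication licensing and S phase tested, 8 passed lower and 0 higher, and 24 of the 26 lay below the control mean, with a median log2 difference of -1.33. Of 32 genes of mitosis and the spindle checkpoint, 7 passed lower and 0 higher, and 31 lay below, with a median of -1.82, or -1.70 when genes listed at 1 throughout a group were set to the floor of 3 reads per library. Over all 9064 genes the median was 0.03 and 1.31% passed lower. The 15 regulators of the cell cycle tested had a median of -0.93 and none passed: Cdk4, the kinase that opens the G1 phase, stood at 75.9 to 106 in the controls and at 31.3 and 48.9 with anti-CSF-1R (adjusted p = 0.0583).

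The promoters of 4 called genes are shown because their lists share short motifs that cell cycle genes are known for: the E2F core (GCGGGAA) in replication genes, and the CHR element (TTTGAA) and the CCAAT box (CCAAT) in mitotic genes. Sequences are from RefSeq (GRCm38.p6), 5′ to 3′ on the gene's strand, ending before the annotated start: Chaf1a chr17:56040166-56040415, plus strand; Pola1 chrX:93632156-93632405, minus strand; Ncapg chr5:45669675-45669918, plus strand; Smc2 chr4:52438971-52439220, plus strand. Capitals mark every match to the 3 motifs on either strand, so that a match on the opposite strand appears as its reverse complement.
Chaf1a: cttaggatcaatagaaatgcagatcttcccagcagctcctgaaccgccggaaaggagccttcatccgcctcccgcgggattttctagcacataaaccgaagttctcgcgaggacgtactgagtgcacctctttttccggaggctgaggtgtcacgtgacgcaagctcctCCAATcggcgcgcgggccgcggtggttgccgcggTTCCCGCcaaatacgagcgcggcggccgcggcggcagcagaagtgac
Pola1: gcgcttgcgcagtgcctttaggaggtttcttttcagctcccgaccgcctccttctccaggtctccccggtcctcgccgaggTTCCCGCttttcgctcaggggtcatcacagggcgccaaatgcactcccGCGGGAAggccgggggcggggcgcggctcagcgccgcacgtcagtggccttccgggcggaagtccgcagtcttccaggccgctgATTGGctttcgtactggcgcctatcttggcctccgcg
Ncapg: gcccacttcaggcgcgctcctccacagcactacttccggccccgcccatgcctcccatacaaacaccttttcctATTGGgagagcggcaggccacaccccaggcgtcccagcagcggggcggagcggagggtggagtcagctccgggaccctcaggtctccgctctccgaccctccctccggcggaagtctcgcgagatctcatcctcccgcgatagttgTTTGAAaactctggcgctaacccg
Smc2: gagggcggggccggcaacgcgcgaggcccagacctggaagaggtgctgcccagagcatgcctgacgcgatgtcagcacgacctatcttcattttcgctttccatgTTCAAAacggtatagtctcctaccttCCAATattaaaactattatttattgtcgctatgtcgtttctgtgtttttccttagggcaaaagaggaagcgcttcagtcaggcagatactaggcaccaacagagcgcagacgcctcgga
In Chaf1a the E2F core began 47 bases before the start and the CCAAT box 81 bases before it. Pola1 held the E2F core at 121 and 169 bases and a CCAAT box at 37. Ncapg held the CHR letters 30 bases before its RefSeq start, which lies 6 bases beyond the end of the sequence shown, and Smc2 at 145. In windows from 250 bases before to 50 after the start, the E2F core was found in 12 of 22 replication genes with a sequence (54.5%) and 8.78% of 6973 tested genes. The CHR letters were found in 21 of 27 mitotic genes (77.8%) and 11.5% of all. CCAAT was found in 70.4% of mitotic genes, 59.1% of replication genes and 38.6% of all. Each motif was searched separately on both strands, and a gene counted for a motif if its window held any match. A match describes the letters and shows no binding.

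Among the replication genes, Mcm3, a subunit of the MCM helicase ring (chr1:20802968-20820312, minus strand), stood at 74.2, 83.6, 41.3 and 65.8 in the controls and at 21.2 and 17.9 with anti-CSF-1R. The highest treated value was below the lowest control, with a log2 difference of -1.67 ± 0.32 (SE, adjusted p = 0.0197). Mcm6, another subunit of that ring (chr1:128331590-128359664, minus strand), stood at 105, 72.2 and 44.1 in the 3 decoded controls and was listed at 1 in anti-CSF-1R replicate 1 (adjusted p = 0.00224), and its value in replicate 2 could be 326, 32.6 or 3.26. Chaf1a, the large subunit of the histone chaperone CAF-1 (chr17:56040439-56072289, plus strand), stood at 9.62, 20.3, 9.64 and 10.6 in the controls and was listed at 1 in both treated libraries (adjusted p = 0.00944). Pola1, the catalytic subunit of DNA polymerase alpha, stood at 65.0, 72.2, 42.0 and 44.1 and at 16.9 and 19.6 (log2 difference -1.53 ± 0.33 SE, adjusted p = 0.0296), below every control. Gins2, part of the replicative helicase complex, stood at 29.6 to 50.3 in the controls and at 11.9 and 9.79 with anti-CSF-1R (adjusted p = 0.0151). Pola1 and Gins2 had adjusted p = 0.12 and 0.0759 when points were placed without the groups. The ribonucleotide reductase subunits Rrm1 and Rrm2, which make deoxynucleotides, were also called. Rrm1 stood at 55.8 to 106 in 3 decoded controls and at 29.6 and 21.2 (log2 difference -1.49 ± 0.33 SE, adjusted p = 0.0343). Rrm2 was listed at 1 in anti-CSF-1R replicate 2, against 18.4 to 56.0 in the controls (adjusted p = 0.0134), and was left out in replicate 1, where the possible values were 762, 76.2 or 7.62. Pcna, the sliding clamp also used in DNA repair, did not follow them: it stood at 257, 286, 320.2 and 507 in the controls and at 423 and 381 with anti-CSF-1R (adjusted p = 0.565).

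The called mitotic genes were Ccnb1 (cyclin B1), Bub1b, Nuf2 and Casc5 (kinetochore and checkpoint proteins), Kif15 (a spindle motor), and Smc2 and Ncapg (condensin subunits). Nuf2 stood at 31.6, 38.9 and 6.89 in the decoded controls and was listed at 1 in both anti-CSF-1R libraries (adjusted p = 0.0231). Ncapg stood at 12.4 to 30.01 in the decoded controls and at 4.24 and 1 with anti-CSF-1R (adjusted p = 0.0413, and 0.0561 when points were placed without the groups). Bub1b stood at 37.1, 39.7 and 22.7 in the decoded controls and was listed at 1 in the only decoded treated library, replicate 2 (adjusted p = 0.0123). In anti-CSF-1R replicate 1 it could be 254, 25.4 or 2.54, and the reading of 254 would lie above its decoded controls. Ccnb1, Casc5 and Smc2 could each be 169, 16.9 or 1.69 in that library. Kif15 could be 571, 57.1 or 5.71 in anti-CSF-1R replicate 2. None of the 7 was decoded in all 6 libraries, and control replicate 4 was left out in each. Controls were graded too: in Nuf2, Casc5 and Kif15 replicate 3 held a lower value than replicates 1 and 2, at 6.89, 12.4 and 15.8 against 31.6 to 62.5. With 1 library left out, between 1 (without anti-CSF-1R replicate 2) and 12 (without control replicate 4) replication genes passed, and between 0 (without anti-CSF-1R replicate 2) and 8 (without anti-CSF-1R replicate 1) mitotic genes. Among the genes that passed in all 6 of those fits were others of S phase, named after their values were seen. Topbp1, a scaffold that starts replication and its checkpoint, stood at 114, 143, 118 and 88.7 in the controls and at 32.2 and 28.5 with anti-CSF-1R (log2 difference -1.88 ± 0.24 SE, adjusted p = 0.00179). 2810417H13Rik, which encodes the PCNA-associated factor PAF15, stood at 26.8 to 78.7 in the controls and was listed at 1 in both treated libraries.

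Other lower genes picked by the naming rule are given one by one. The ETS factor Etv5 (chr16:22381309-22439719, minus strand) stood at 105, 95.7, 86.1 and 139 in the controls and at 36.4 and 35.1 with anti-CSF-1R (log2 difference -1.53 ± 0.26 SE, adjusted p = 0.00944). Pmepa1, a membrane protein that dampens TGF-β signalling, stood at 1106, 962, 994 and 1267 against 480.3 and 360.5 (log2 difference -1.37 ± 0.32 SE, adjusted p = 0.0376). For both genes the treated values lay below every control. Nop58, a core protein of box C/D snoRNPs, stood at 69.5 to 102 and at 35.6 and 27.7 (adjusted p = 0.00944), and the nucleolar protein gene Rsl1d1 at 166 to 181 and at 107 and 52.2 (adjusted p = 0.024). The aminoacyl-tRNA synthetases Wars and Lars stood at 46.9 to 64.1 and 94.9 to 129 in the controls and at 20.3 and 26.1 and at 50.8 and 44.0 with anti-CSF-1R (adjusted p = 0.0243 and 0.0258). Heatr3, an import factor for a ribosomal protein, had a log2 difference of -1.74 ± 0.28 (SE, adjusted p = 0.00732), and Pa2g4, a growth-regulated RNA-binding protein, one of -1.46 ± 0.33 (SE, adjusted p = 0.0332). Atm, the kinase that answers DNA breaks, stood at 60.6 to 93.0 in the controls and at 30.5 and 23.7 with anti-CSF-1R (log2 difference -1.44 ± 0.26 SE, adjusted p = 0.0118). Parp1, which marks broken DNA with poly-ADP-ribose, had a log2 difference of -1.11 ± 0.26 (SE, adjusted p = 0.0376). Trp53, deleted in the tumour epithelium by design but transcribed in these leukocytes, stood at 98.4, 123, 116 and 101 in the controls and at 46.6 and 57.1 with anti-CSF-1R (log2 difference -1.07 ± 0.25 SE, adjusted p = 0.0376). It was the called member of 23 genes of the p53 and DNA damage response, whose median was 0.21. Pik3cg and Ssh2, a lipid kinase and a cofilin phosphatase of moving leukocytes, had log2 differences of -1.17 ± 0.25 and -1.42 ± 0.30 (SE). Without anti-CSF-1R replicate 2 none of the genes named here passed, at adjusted p = 0.116 (Wars) to 0.347 (Pmepa1 and Pa2g4).

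Several cathepsins were higher with anti-CSF-1R. Of 44 lysosomal proteases and hydrolases tested, 4 passed higher and 1 lower, 35 had a positive difference (30 after quantile normalisation), and the median was 0.46. Ctsd, the aspartic protease cathepsin D (chr7:142375911-142388038, minus strand), stood at 2429, 2031, 2706 and 4094 in the controls and at 10237 and 9669 with anti-CSF-1R. The means were 2815 ± 897 (SD, n = 4) and 9953 ± 402 (SD, n = 2), a log2 difference of 1.87 ± 0.28 (SE, adjusted p = 0.00435). Ctsb, the cysteine protease cathepsin B, stood at 6279, 5817, 7138 and 9108 and at 15919 and 15344 (log2 difference 1.16 ± 0.27 SE, adjusted p = 0.0376). Ctsl, cathepsin L (chr13:64359337-64370890, minus strand), stood at 366, 509, 656 and 635 in the controls and at 3862 and 1093 with anti-CSF-1R (log2 difference 1.96 ± 0.43 SE, adjusted p = 0.0332). For Ctsl the first treated library was far above the second, and its adjusted p was 0.149 without replicate 1 and 0.022 without replicate 2. Gpnmb, a lysosomal glycoprotein of lipid-laden macrophages, stood at 79.5 and 86.1 in the decoded controls and at 477 and 306 (adjusted p = 0.0136, and 0.226 when points were placed without the groups). Its left-out controls could be 504, 50.4 or 5.04 in replicate 1 and 112, 11.2 or 1.12 in replicate 4. The reading of 504 would lie above both treated values. Ctsf, cathepsin F, was the lower one, at a mean of 14.4 ± 4.90 (SD, n = 4) in the controls and at 1 and 1.63 with anti-CSF-1R (adjusted p = 0.00944). Ctss, cathepsin S, stood at 4095, 3371, 6627 and 13296 in the controls, and the last of these lay above 1 of the treated values of 17716 and 9733 (adjusted p = 0.186). The called lysosomal genes numbered from 1 (Ctsl) without anti-CSF-1R replicate 2 to 10 without control replicate 4.

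The vacuolar ATPase acidifies lysosomes, and 2 of its 17 tested subunit genes passed higher and 0 lower, with a median of 0.49. Atp6v1c1 stood at 330.1, 297, 389 and 368 in the controls and at 556 and 744 with anti-CSF-1R (log2 difference 0.90 ± 0.22 SE, adjusted p = 0.0428). Atp6v1e1 stood at 96.6, 165, 142 and 175 and at 314 and 281 (log2 difference 1.07 ± 0.25 SE, adjusted p = 0.0394). Each was clear of its controls, but neither passed when points were placed without the groups (adjusted p = 0.0538 and 0.0503). The E-box CACGTG, the core of the site read by the lysosomal factor TFEB and by many other bHLH factors, was found in the 300-base promoter windows of 26.5% of 34 lysosomal genes and 36.4% of 11 vacuolar ATPase genes with a sequence, against 767 of the 6973.

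Among 38 genes of lipid uptake, storage and efflux, 2 passed higher and 0 lower, with a median of 0.28. Fabp5, a fatty acid-binding protein (chr3:10012548-10016607, plus strand), stood at 129, 240.1, 211 and 168 in the controls and at 1017 and 874 with anti-CSF-1R. The group means were 187 ± 48.7 (SD, n = 4) and 946 ± 101 (SD, n = 2), a 5.05-fold ratio and a log2 difference of 2.37 ± 0.27 (SE, adjusted p = 0.0015, and at most 0.022 with 1 library left out). Plin2, which coats lipid droplets, stood at 585, 581, 697 and 743 and at 1200.2 and 1260.0 (log2 difference 0.92 ± 0.20 SE, adjusted p = 0.0308). Abca1, the cholesterol exporter, stood at 1381 to 1903 and at 2529 and 3756, apart from the controls but at an adjusted p of 0.0646. Agpat9, an acyltransferase of glycerolipid synthesis that is not in this list, stood at 56.8, 46.2, 47.5 and 41.3 in the controls and at 136 and 223 (log2 difference 1.85 ± 0.32 SE, adjusted p = 0.0118). Without anti-CSF-1R replicate 2, Fabp5 alone passed in the lipid list. Apoe, the lipid carrier of macrophages, showed how far the controls differ from each other: it stood at 4534, 4749.6, 8327 and 16206 there and at 16976 and 25451 with anti-CSF-1R (adjusted p = 0.0991). Control replicate 4 reached almost the first treated library.

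Of 36 genes of inflammatory cytokines and NF-κB targets tested, 5 passed higher and 0 lower, 34 had a positive difference, and the median was 1.34. The list's median deviation from the control mean was 0.75 in anti-CSF-1R replicate 1 and 1.73 in replicate 2. Of the 5, 4 had no decoded value in replicate 1, so they have no test without replicate 2, and the other, Ier3, then had an adjusted p of 0.385. Ier3, an immediate early survival gene, had values in all 6 libraries, 248, 214, 371 and 431 in the controls and 681 and 1772 with anti-CSF-1R (log2 difference 1.85 ± 0.40 SE, adjusted p = 0.0308). Nfkbia, the inhibitor induced by NF-κB, stood at 86.0 to 175 in the controls and at 625 in replicate 2, and its value in replicate 1 could be 237 or 23.7 (adjusted p = 0.0118). Il10, an anti-inflammatory cytokine, stood at 28.8, 17.2 and 41.8 in the decoded controls and at 460.0 in replicate 2, and could be 483 or 48.3 in replicate 1 (adjusted p = 0.00315, and 0.0913 when points were placed without the groups). Irg1, which makes itaconate, and Slpi, a secreted protease inhibitor, were likewise decoded in replicate 2 alone of the treated libraries, at 129.7 and 462 (adjusted p = 0.037 and 0.039, and 0.0484 and 0.0528 when points were placed without the groups). Irg1 stood at 25.6 and 25.1 in control replicates 1 and 2. Its left-out controls could reach 110 in replicate 3 and 223 in replicate 4, and the latter would lie above 129.7. Slpi was left out in control replicates 1, 2 and 4, where it could reach 321, 243 and 100. Its call therefore rests on control replicate 3 alone of the controls. In anti-CSF-1R replicate 1, Irg1 could be 762, 76.2 or 7.62 and Slpi 932, 93.2 or 9.32. The mast cell genes described above were high in anti-CSF-1R replicate 2, and their part in the inflammatory values of that library was not tested. Vegfa, the angiogenic growth factor, stood at 381, 286, 634 and 503 in the controls and at 887 and 1668 with anti-CSF-1R, without overlap but with an adjusted p of 0.0536. The endotoxin co-receptor Cd14 stood at 987 to 2817 and at 3244 and 10153 (adjusted p = 0.097).

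**Figure D3:**
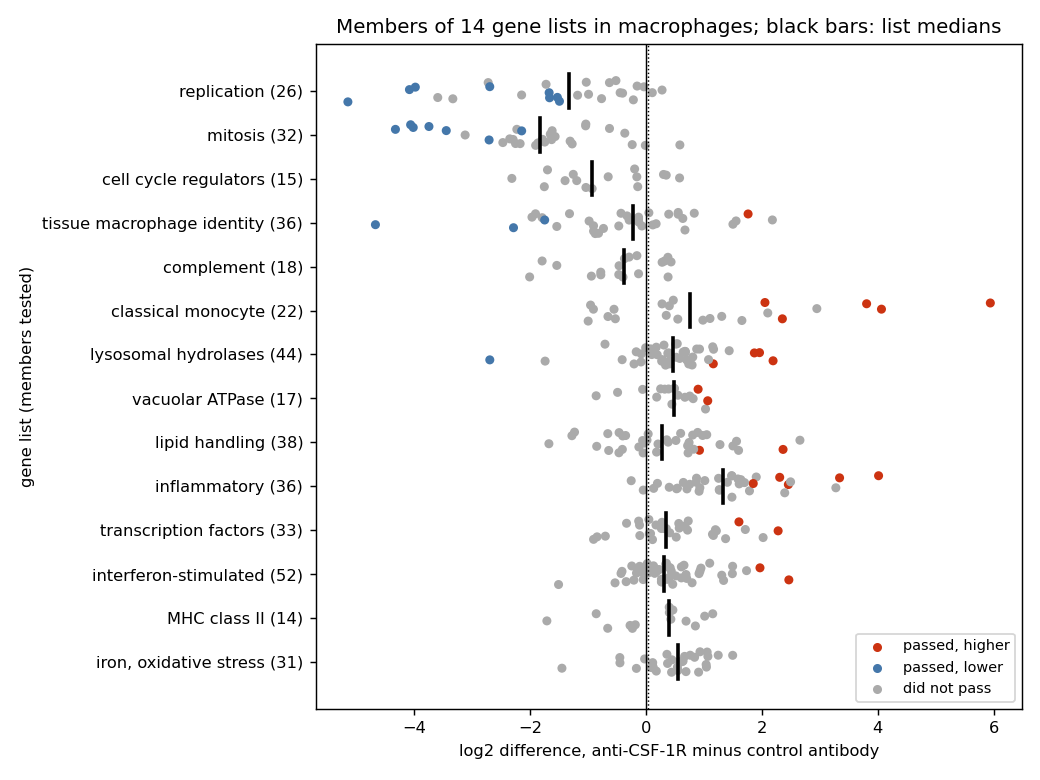
Each point is a tested gene of 1 of 14 gene lists, placed by its log2 difference, anti-CSF-1R minus control antibody. Red points passed higher, blue points passed lower and grey points did not pass. Black bars are list medians, from -1.82 in mitosis to 1.34 in the inflammatory list, and the dotted line is the median of all genes tested, 0.03.

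Transcription factors and other regulators among the higher genes included Egr2, Id2 and Btg1. Egr2, an early growth response factor of macrophages (chr10:67535475-67542188, plus strand), stood at 71.0, 83.3 and 104 in the decoded controls and at 518 and 337 with anti-CSF-1R (log2 difference 2.28 ± 0.46 SE, adjusted p = 0.0258). Id2, an inhibitor of bHLH factors, stood at 282, 278, 299 and 538 and at 817 and 1278 (log2 difference 1.60 ± 0.36 SE, adjusted p = 0.0343). These 2 were the called members of 33 myeloid transcription factors, which had a median of 0.35. Btg1, an anti-proliferative gene of quiescent cells (chr10:96617006-96622809, plus strand), stood at 948, 1025, 1259.5 and 1391 in the controls and at 2968 and 5878 with anti-CSF-1R (log2 difference 1.87 ± 0.29 SE, adjusted p = 0.00605, and 0.134 without replicate 2). Hif1a, the oxygen-regulated factor (chr12:73901375-73947530, plus strand), stood at 381, 531, 443 and 367 and at 1001 and 870.2 (log2 difference 1.13 ± 0.23 SE, adjusted p = 0.0215). Ndrg1, a gene induced by hypoxia and stress, stood at 76.0, 78.7, 123 and 155 and at 260.0 and 705 (log2 difference 2.04 ± 0.44 SE, adjusted p = 0.0297). They were the 2 called of 34 genes of glycolysis and hypoxia, with a median of 0.27. Wfdc17, a secreted whey acidic protein, stood at 229, 127, 439 and 565 and at 1505 and 1464 (adjusted p = 0.0314). Lgals3, the lectin galectin 3, stood at 369 to 826 and at 1381 and 1292 (adjusted p = 0.0405). The remaining genes of largest rise by the naming rule had log2 differences of 1.51 to 1.84: Gab1, an adaptor of receptor tyrosine kinases, Gzf1, a zinc finger protein, Iqgap2, a scaffold of the cytoskeleton, Fem1b, a ubiquitin ligase adaptor, and Mat2b, a subunit of S-adenosylmethionine synthesis. Of these, Gab1 was uneven, at 124 to 164 in the controls and at 274 and 926 with anti-CSF-1R.

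Other immune programmes had few or no calls. Of 52 interferon-stimulated genes, 2 passed higher: Rsad2, the antiviral enzyme viperin, at 111 and 59.9 in the decoded controls and 598 and 346 with anti-CSF-1R (log2 difference 2.47 ± 0.36 SE, adjusted p = 0.00783), and Slfn4, at 46.7 to 107 and at 251 in the only decoded treated library (adjusted p = 0.0351, and 0.123 when points were placed without the groups). The left-out Rsad2 controls could be 487, 48.7 or 4.87 in replicate 2 and 385 or 38.5 in replicate 4. The highest reading of each lies above the lower treated value. Slfn4 in anti-CSF-1R replicate 2 could be 106 or 10.6. The list median was 0.31, and the treated libraries lay on either side of the controls, with median deviations of 0.79 in replicate 1 and -0.23 in replicate 2. None of 20 MHC class I genes passed, with a median of 0.20, and none of 14 MHC class II genes, where 8 had a positive difference, or 7 after quantile normalisation. B2m, the MHC class I light chain, stood at 5813, 4499, 6285 and 12834 in the controls and at 14513 and 10655, so that control replicate 4 lay between the treated libraries (adjusted p = 0.205). Without that control, 4 MHC class I genes passed. None of 18 complement genes passed, with a median of -0.38, and none of 31 genes of iron and oxidative stress, with a median of 0.55. Of 23 Fc receptors and ITAM adaptors, Trem2 and the kinase Syk, which relays their signals, passed higher, with a median of 0.39. Of 21 chemokines, Ppbp and Cxcl13 passed lower and none higher, with a median of 0.64. Cxcl13, the B cell attractant, stood at 402, 88.4 and 42.0 in the decoded controls and was listed at 1 in anti-CSF-1R replicate 2, while Ccl8, a ligand of CCR2 and related receptors, stood at 106 to 188 in the controls and 1841 and 232 with anti-CSF-1R (adjusted p = 0.171). Cxcl13 could be 135.5 or 13.6 in anti-CSF-1R replicate 1 and 391, 39.1 or 3.91 in control replicate 4. The reading of 135.5 would lie above the decoded controls of 88.4 and 42.0. Ear1 and Ear2, ribonucleases of eosinophils and some macrophages, were listed at 1 in the 3 decoded controls and stood at 28.0 and 42.4 and at 61.0 and 20.4 with anti-CSF-1R (adjusted p = 0.00435 each). In control replicate 4 each was left out and could be 112, 11.2 or 1.12, and the highest reading lies above every treated value. The 3 eosinophil markers in the table summed to 17.8 and 4.45 (at most 26.5) with anti-CSF-1R and to 4.75 to 22.04 in the controls. Reads of Ear, Ly6, histone and mast cell protease genes are uncertain, since near-identical copies can share them, and the labels do not say whether counting used strand.

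Both anti-CSF-1R libraries were decoded for 90 of the higher and 92 of the lower genes. The median deviation from the control mean was 1.30 in replicate 1 and 1.66 in replicate 2 for the higher genes, and -1.57 and -1.98 for the lower ones. Across genes the libraries correlated at 0.903, inside the range of 0.882 to 0.936 between pairs of controls, a description of these libraries since genes are not independent. Of the lower genes, 39 were listed at 1 in every decoded treated library, and of the higher genes, 4 were listed at 1 in every decoded control. The treated libraries differed from each other in mast cell genes. The protease genes Tpsab1, Tpsb2, Cma1, Mcpt4 and Cpa3 stood at 4467, 728, 1128, 1319 and 1280.4 in replicate 2, and Tpsb2 and Cpa3 were listed at 1 in replicate 1. Kit, the stem cell factor receptor, stood at 281 in replicate 2. Tpsab1 and the IL-33 receptor Il1rl1 were called, at 4.87 and 29.6 and at 3.91 to 5.68 in their decoded controls against 4467 and 319 in replicate 2, and neither was decoded in replicate 1 (adjusted p = 0.00783 and 0.00224, and 0.154 for Il1rl1 when points were placed without the groups). Of 9 T and NK cell markers 2 were in the table, and Cd3d, the one that defines T cells, was listed at 1 in 5 of the 6 libraries. The other, Cd4, stood at 150, 238, 177 and 192 in the controls and at 136 and 111 with anti-CSF-1R. These values did not overlap, but Cd4 did not pass (adjusted p = 0.1655). The sums of B cell, epithelial and fibroblast markers overlapped between the groups. Dendritic cell markers summed to 28.8 and 86.0 with anti-CSF-1R and 4.37 to 26.7 in the controls, and endothelial markers to 104 and 130.5 and 26.6 to 95.0, but control replicate 1 could reach 140.4 and 707. Their part in the results was not tested.

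**Figure D4:**
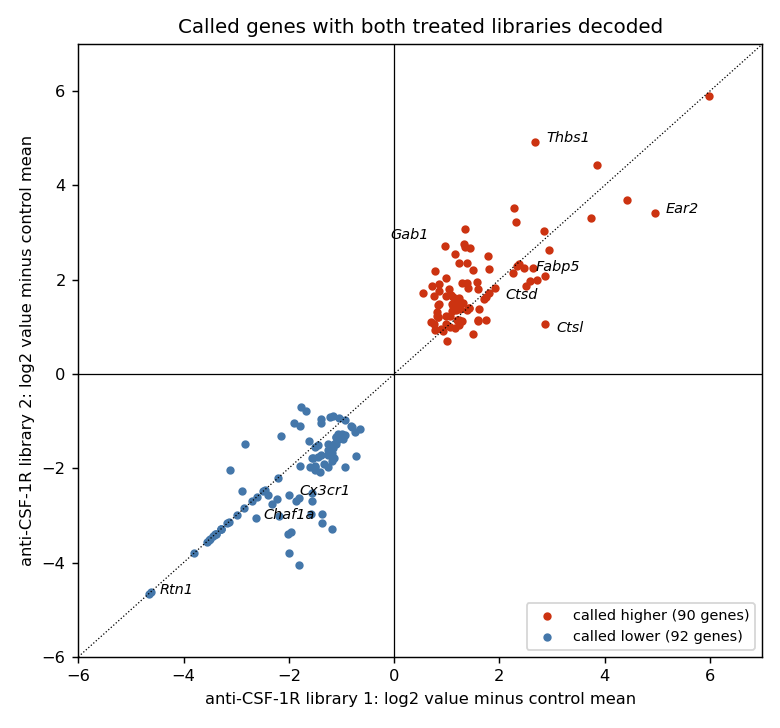
Called genes with both anti-CSF-1R libraries decoded, 90 higher (red) and 92 lower (blue). The axes give log2(value + 1) minus the mean of the controls in replicate 1 (horizontal) and replicate 2 (vertical) and the dotted line marks equal deviations. The choice of called genes favours deviations of like sign, and the distance from the line is the difference between the libraries. Genes listed at 1 in both libraries lie on the dotted line.

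The same antibody was also given with cisplatin, in macrophage libraries that share none with the comparison above. There, 259 of 9043 genes passed between combination and cisplatin with control antibody (2.86%), 124 higher (1.37%) and 135 lower (1.49%). Both comparisons came from the same fit, however, with the residual spread of each gene pooled over all macrophage groups. Calls with and without cisplatin are therefore not independent of each other. Of 201 genes called without cisplatin and tested in both, 176 had the same sign with cisplatin, 62 passed there in the same direction (30.8%) and 0 in the opposite one. The 62 made up 24.6% of the 252 genes called with cisplatin and tested in both. Over all 8922 genes tested in both, 5870 had the same sign. Among the 62 were Fabp5, Thbs1, Ctsl, Btg1, Hif1a, Plin2, Lgals3 and Egr2 on the higher side and Cx3cr1, Rtn1, Etv5, Pmepa1, Ccnb1, Pola1, Gins2, Rrm1 and Trp53 on the lower. Fabp5 had log2 differences of 2.37 ± 0.27 without and 3.13 ± 0.35 with cisplatin (SE), Cx3cr1 of -2.28 ± 0.38 and -3.98 ± 0.38, and Btg1 of 1.87 ± 0.29 and 1.66 ± 0.29. Cd274, the checkpoint ligand PD-L1, named after its values were seen, had 1.68 ± 0.36 and 1.75 ± 0.36 (SE, adjusted p = 0.0343 and 0.0295). Trem2 stood at 0.27 ± 0.29 with cisplatin against 1.76 ± 0.29 without, Gab1 at 0.10 ± 0.35 against 1.84 ± 0.35, Il10 at -0.18 ± 0.41 against 4.01 ± 0.47 and Atm at -0.14 ± 0.26 against -1.44 ± 0.26. A test of the difference between the 2 effects found none of these 4 (adjusted p = 0.406, 0.419, 0.17 and 0.416). It called 1 gene of 8922 (0.0112%), the ETS factor Etv1, and 714 had an unadjusted p under 0.05. Etv1 stood at 5.02 to 15.8 in controls and 7.62 and 8.16 with anti-CSF-1R, but at 152 to 196 with cisplatin and 4.87 and 4.26 in the combination (log2 difference of the effects -4.88 ± 0.54 SE, adjusted p = 0.00244), and it was not tested when points were placed without the groups. Csf1r, which did not pass without cisplatin, passed lower in the cisplatin setting (log2 difference -1.02 ± 0.23 SE, adjusted p = 0.0361). So did C1qb (-1.14 ± 0.28 SE, adjusted p = 0.0475) and C1qc (-1.65 ± 0.27 SE, adjusted p = 0.00678), while C1qa did not (adjusted p = 0.0661). For none of them did the difference between the 2 effects pass. A p above the threshold does not show that 2 effects are alike.

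**Figure D5:**
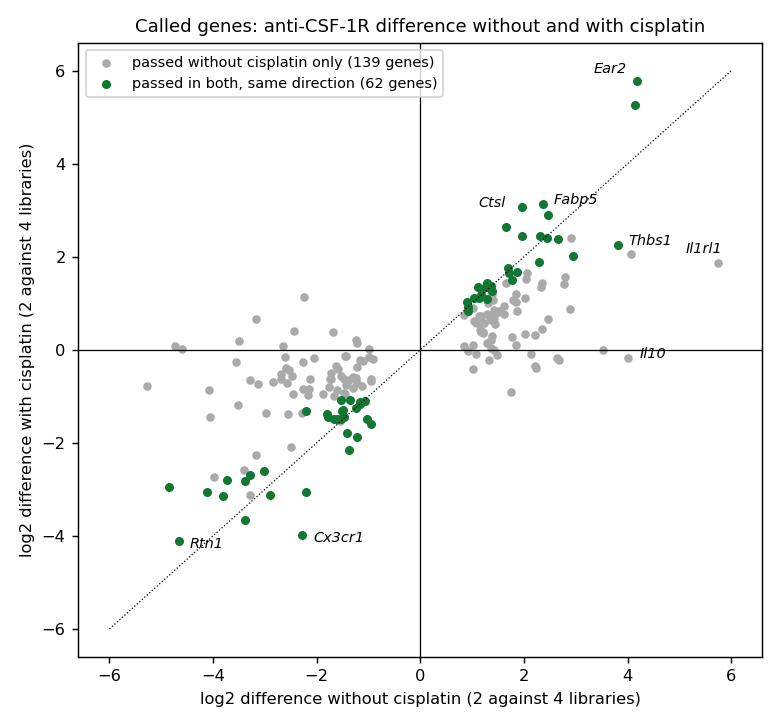
The 201 genes called without cisplatin and tested in both settings, placed by the log2 difference of anti-CSF-1R from its control without cisplatin (horizontal) and with cisplatin (vertical). Green points (62) passed in both in the same direction, grey points (139) passed without cisplatin alone, and the dotted line marks equal differences. No gene that passed in both lies in a quadrant of opposite sign.

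Neutrophils from tumours under the same antibody show where the antibody's effect differs between the sorted populations. The difference between the effects was called for 10 of 9753 genes (0.103%), 7 more positive in macrophages (0.0718%) and 3 more negative (0.0308%), and 843 had an unadjusted p under 0.05. Sort1, a sorting receptor of the trans-Golgi network, stood at 6.49 to 9.64 in control macrophages and at 62.7 and 71.0 under anti-CSF-1R, and at 48.9 to 124 and 55.6 to 111 in neutrophils (difference of effects 2.87 ± 0.51 SE, adjusted p = 0.00756). For Sort1 this difference was not tested when points were placed without the groups. The mast cell genes Tpsab1, Cma1, Mcpt4 and Il1rl1 were among the others, each decoded in anti-CSF-1R replicate 2 alone of the treated macrophages. With points placed without the groups 2 genes passed, Tpsab1 among them, and none of the 10 passed without anti-CSF-1R replicate 2. For the genes that describe this comparison the difference between the populations did not pass, as for Fabp5 (adjusted p = 0.126), Ctsd (0.18), Rtn1 (0.141), Thbs1 (0.637) and Cx3cr1 (0.839).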

How the data were processed

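Per the labels' protocols, 10 ng of RNA from sorted cells went through NuGen's Ovation (RNA-seq V2) and then its Encore Rapid library kit, and an Illumina HiSeq read the libraries. Tools listed in the submitters' processing notes are DESeq2, R 3.3.1, Partek 6.6, TopHat2 2.0.11 and CASAVA 1.8, with build mm10, and what each did is not stated there. The deposited table gives the authors' normalised signal per gene and library, in the scale of read counts, for 9996 genes in 27 libraries, whose column names all match their labels.

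In 91.0% of the 269892 values the decimal point could have been lost, and values under 1 are listed as 1. Each library's values are whole multiples of the value of 1 read (largest residual 0.0246 reads), which left several places for the point in 67.1%. A negative binomial model over the libraries of each group gave each place a probability. Values under 0.95 were left out, 4.30% in the macrophage libraries, or 5.69% when the model ignored the groups. Decoded reads per macrophage library came to 1283686 to 7436973, and their number limits the precision of low values.

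Log2(value + 1) of genes at 10 or more in at least 2 libraries was fitted with limma 3.58.1 (R 4.3.3; Python 3.11.15 for the rest), with an empirical Bayes trend and Benjamini-Hochberg adjustment over all genes tested. The fit held the 12 macrophage libraries, or all 27 for the contrast with neutrophils, without covariates. An exact permutation test of 2 against 4 libraries cannot give a two-sided p below 0.0667. In simulated data for the first comparison (9096 genes, 100 changed at each size), 70% of 4-fold and 29% of 2-fold changes were recovered and 13 of 113 calls were false, and 0.0796% of kept values were wrong. The simulation left out 1.58% of values, against 4.30% in the macrophage libraries, so its rates may not hold for these data.

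Named genes are the 15 largest changes in each direction among called genes that also passed with points placed without the groups, had values in all 6 libraries without overlap and a mean log2 value of at least 5. To these were added the 4 members of each of 37 lists with the smallest p and the fixed markers. Named after their values were seen were Apoe, Ccl8, Cd274, Clec4d, Ctsb, Etv1, Gins2, Kif15, Ncapg, Pcna, Pola1, Rrm1, Slpi, Smc2, Sort1 and the genes that passed with each library left out in turn but fall outside this rule. The members and lists were chosen with earlier results of these data known. Positions are from GENCODE vM21 on GRCm38 (167 of 172 names matched). Alternatives covered the pseudocount, filter, normalisation, groups fitted, weights, threshold, decoding and each library left out. Some items are not reported here by name, though they count in the totals.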

Additional observations from a re-analysis of the deposited data

Results flagged for a closer look

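Among the 105 named genes with 4 decoded controls, 4 had a control far from the other 3 by Dixon's test, where chance alone marks about 1 in 20. Ccr7 was listed at 1 in control replicate 1, below the others. Chaf1a stood at 20.3 in control replicate 2, above the others. Control replicate 4 was the high one for both Fcgr1, at 518, and Id2, at 538.

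The effect of anti-CSF-1R differed with and without cisplatin for Etv1, by -4.88 on the log2 scale. It differed between macrophages and neutrophils for 10 genes, of which 9 are given. The log2 differences of the effects, macrophages minus neutrophils, were -3.06 for Hist1h2bm and -2.60 for Fam210b. They were 2.87 for Sort1, 4.44 for Clec12b, 4.68 for Mgp and 5.36 for Il1rl1. The mast cell proteases Cma1, Mcpt4 and Tpsab1 had 7.67, 8.22 and 9.54. None of the 10 passed in the fit without anti-CSF-1R replicate 2 of the macrophages.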

How the results depend on the processing

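For anti-CSF-1R against control antibody (222 genes), the count was 142 with a filter of 30 in 2 libraries, 116 after quantile normalisation, 61 with only these groups in the fit, 46 with array weights and 47 at an adjusted p of 0.01. It was 135 with points placed without the groups, 17 with only values of a single possible place and 61 with limma-voom on decoded reads, and leaving out 1 library gave 16 to 478. Lower calls outnumbered higher ones (103 higher, 119 lower), but this balance turned with a pseudocount of 5 (113 and 100), the filter of 30 (80 and 62), array weights (24 and 22), limma-voom (49 and 12), single places (14 and 3) and without control replicate 4 (253 and 225). For the combination against cisplatin (259), the count was 504 with only these groups, 1514 with array weights, 37 at 0.01, 127 without the groups in decoding and 62 with single places, leaving out 1 library gave 3 to 468, and 124 higher and 135 lower became 125 and 113 with a pseudocount of 5, 257 and 247 with only these groups, 65 and 62 without the groups in decoding, 35 and 27 with single places and 173 and 109 with limma-voom. For the difference between these effects (1), it was 2 with a pseudocount of 5, 12 without a filter, 0 without the groups in decoding, 11 with the most probable place for every value, 0 with single places and 5 with limma-voom, and 1 to 5 with 1 library left out. For macrophages against neutrophils (10), it was 5 with the filter of 30, 2 without the groups in decoding, 18 with the most probable place, and 0 to 34 with 1 library left out. The cause was not tested. No called named gene changed sign in the first comparison. Of the values of single named genes, 2168 kept their side of the threshold, 425 lost their call and 52 gained one. No paired analysis was possible because the labels number no replicates. The edgeR alternative was not run, since that test was kept to deposited counts and these reads were decoded from normalised values. For the difference between the macrophage effects, the fit with only the groups compared is the same fit. Where 1 library of a group was left, it was assumed to vary like those of the remaining groups. Low values rest on few reads, so a gene listed at 1 may be expressed below that depth.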
